A study of Mus musculus with 3 samples.

Results

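The lymphocyte antigen 6 (Ly6) family genes are described here: the 7 members Ly6c2, Ly6c1, Ly6a, Ly6i, Ly6e, Ly6g and Ly6d, taken by symbol from the 27998 genes of 3 single-cell RNA libraries of sorted mouse myeloid cells. The first library came from the tumor of FoxP3 DTR mice labelled as Treg-depleted, the second from the tumor of wild-type control mice, and the third from the blood of wild-type control mice that bore the tumor. All were C57BL/6J with subcutaneous B16F10, a melanoma cell line, and the sort took live CD45+ cells without CD90, NK1.1, Ly6G, B220 or SigF that carried CD11b, CD11c or both. The FoxP3 DTR allele and Treg depletion came together, so genotype and depletion cannot be told apart, and the labels give neither age nor animal numbers nor the agent and dose of depletion. Foxp3 had 0 UMIs in the Treg-depleted tumor, 1 UMI in the control tumor and 0 UMIs in blood, which checks nothing, since the sort removed CD90+ cells.

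Ly6 genes encode small proteins with a 3-fingered fold, most of them held on the cell surface by a glycosylphosphatidylinositol (GPI) anchor. Ly-6C, encoded by Ly6c1 and Ly6c2, is the surface antigen by which classical monocytes are told from nonclassical ones, and it is lost as monocytes become macrophages. Ly6a encodes Sca-1, the stem cell antigen, which interferons induce in leukocytes, and several other members respond to interferons too.

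Each group is a single library, so the groups cannot be tested against each other, no p-value is given, and differences between mice cannot be judged. Levels (CPM) are unique molecules (UMIs) of a gene per 1000000 UMIs of the same cells. The counts come from the 3′ ends of transcripts, 1 per captured molecule, and were not divided by gene length. Brackets hold 95% intervals that cover counting error only. After filtering, 4434 cells of the Treg-depleted tumor, 4443 of the control tumor and 5550 of blood remained, with median depths of 3820, 6452 and 3550 UMIs per cell. The libraries shared 27 to 36 cell barcodes in pairs, against 26.7 to 33.4 from random drawing.

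Cells were gated by marker genes, and no Ly6 gene was used. The monocyte-to-macrophage cells, namely the classical monocyte, nonclassical monocyte and macrophage gates and the cells lying between them, numbered 3709 in the Treg-depleted tumor, 3677 in the control tumor and 4628 in blood. The classical monocyte gate held 1513, 1262 and 3320 cells in that order of libraries. The macrophage gate held 1777 cells of the Treg-depleted tumor, 2160 of the control tumor and 9 of blood, while the nonclassical gate held 40, 88 and 1138 cells. Levels summed over all monocyte-to-macrophage cells therefore mix different proportions of gates, and the main results are also given within a gate. The border between these gates depends on the method, most of all in the Treg-depleted tumor. When all cells were clustered instead, the main classical monocyte clusters of the tumors held 516 and 278 Treg-depleted tumor cells. They held 1041 and 60 control tumor cells. The largest macrophage clusters of the Treg-depleted tumor held 1761 and 1367 of its cells. Tumors were digested with enzymes and blood was not, so tissue and digestion cannot be told apart in any comparison of tumor with blood. In the macrophage gate the 10 macrophage markers summed to 10340 CPM in the Treg-depleted tumor and 16580 CPM in the control tumor, against 4095, 2432 and 3624 CPM in the classical gates of the Treg-depleted tumor, control tumor and blood. Different markers made up that sum in each tumor. In the most macrophage-like quintile described below, Arg1, C1qa and Apoe stood at 6164, 842 and 235 CPM in the Treg-depleted tumor. In the control tumor they stood at 419, 4083 and 8379 CPM, so the macrophage gates of the tumors may hold unlike cells. The sort and the gates bear on the family itself: cells carrying Ly-6G were removed, and so were cells with B220, which takes in most B cells and plasmacytoid dendritic cells (DCs), the main carriers of Ly6d.

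The 7 genes lie within 397 kb of chromosome 15 (GRCm38). Ly6d is at 74762056 to 74763620, Ly6e at 74955051 to 74959905, Ly6i at 74979534 to 74983430 and Ly6a at 74994877 to 74998031. Ly6c1 follows at 75044018 to 75048830, Ly6c2 at 75108158 to 75111970 and Ly6g at 75155240 to 75159126. Ly6e and Ly6g are on the plus strand and the others on the minus strand. Ly6c1 and Ly6c2 are near-identical: over 822 aligned bases of their transcripts 97.6% agreed, and 252 stretches of 50 bases, 32.6% of those of Ly6c2, occurred in both. How reads from such stretches were assigned is not given in the sources used here, so the split of counts between Ly6c1 and Ly6c2 is uncertain. No other pair of members shared more than 40 such stretches.

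The RefSeq promoter table (GRCm38.p6) holds Ly6c2, Ly6c1 and Ly6g of the 7 members. For each, the 250 bases before the start listed first in that table are shown because Ly6c2 and Ly6c1, whose transcripts are so alike, differed widely in counts: for each UMI of Ly6c1, 91.9 UMIs of Ly6c2 were counted in the Treg-depleted tumor, 128 in the control tumor and 159 in blood. Capitals mark the letters GAGGAAGT, a core recognised by PU.1, the transcription factor of myeloid development.
Ly6c2 (chr15:75111972-75112221, minus strand): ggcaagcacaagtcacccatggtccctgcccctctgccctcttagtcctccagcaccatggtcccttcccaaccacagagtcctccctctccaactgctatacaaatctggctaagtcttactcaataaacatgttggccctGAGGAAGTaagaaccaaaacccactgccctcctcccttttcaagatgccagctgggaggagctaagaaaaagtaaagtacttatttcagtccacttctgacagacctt
Ly6c1 (chr15:75048838-75049087, minus strand): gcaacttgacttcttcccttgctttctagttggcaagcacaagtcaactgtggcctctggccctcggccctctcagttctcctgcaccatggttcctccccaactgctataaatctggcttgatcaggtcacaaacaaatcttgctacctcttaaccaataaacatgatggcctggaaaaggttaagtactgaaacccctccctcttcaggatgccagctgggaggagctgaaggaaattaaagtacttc
Ly6g (chr15:75155011-75155260, plus strand): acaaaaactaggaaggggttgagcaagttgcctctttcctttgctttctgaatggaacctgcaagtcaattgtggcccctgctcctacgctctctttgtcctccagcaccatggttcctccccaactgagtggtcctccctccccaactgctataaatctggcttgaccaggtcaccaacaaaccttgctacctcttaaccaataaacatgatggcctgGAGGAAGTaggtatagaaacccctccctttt
The Ly6c1 and Ly6c2 windows were 81.0% identical over 210 aligned bases. The motif began 108 bases before the RefSeq start of Ly6c2 and 31 bases before that of Ly6g, and it was not in the Ly6c1 window. GENCODE starts Ly6g further upstream, so that 21 bases of its window lie inside the GENCODE gene and the motif begins 10 bases before it. The table lists 2 starts for each of these genes. Before the second start the motif was found in all 3 windows, with 2 matches for Ly6c2, 1 for Ly6c1 and 1 for Ly6g, so its absence from the Ly6c1 sequence printed here depends on the start used. Searched on both strands, it was found in 2.44% of 27025 promoter windows of the same length. The interferon gamma-activated site TTCNNNGAA (in 7.18% of windows) and the interferon-stimulated response element, GAAA repeated after a gap of 2 bases (in 3.04%), had no match in the windows before either start. The motifs were not searched beyond these windows, and a match is a description of these letters, not a site.

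Taken over the monocyte-to-macrophage cells, the family made up about the same part of the transcriptome in each library, but with different members. The 7 genes together had 3064 CPM in the Treg-depleted tumor, 2585 CPM in the control tumor and 3038 CPM in blood. Ly6e held 22.5% of family UMIs in the Treg-depleted tumor, 34.4% in the control tumor and 56.9% in blood. Ly6a held 27.6%, 39.2% and 0.822% in the same order. Ly6c2 held 40.5% in the Treg-depleted tumor, 20.6% in the control tumor and 37.4% in blood, and Ly6i held 8.93%, 5.42% and 4.20%. Ly6e and Ly6c2 held most of the family's UMIs in blood, and both tumors had Ly6a as a further abundant member.

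Ly6c2 was lower in the control tumor than in blood, but not in the Treg-depleted tumor. It stood at 1242 CPM (1225 to 1260) in the Treg-depleted tumor, 534 CPM (526 to 542) in the control tumor and 1137 CPM (1121 to 1153) in blood. The log2 ratio was 0.13 (0.10 to 0.16) for Treg-depleted tumor over blood and −1.09 (−1.12 to −1.06) for control tumor over blood. Between the tumors it was 1.22 (1.19 to 1.25). Much of the difference from blood moved with the gates: within the classical monocyte gate Ly6c2 stood at 2053 CPM in the Treg-depleted tumor, 1098 CPM in the control tumor and 1388 CPM in blood. The log2 ratios there were 0.57 (0.53 to 0.60) for Treg-depleted tumor over blood and −0.34 (−0.38 to −0.30) for control tumor over blood. With every cell weighted equally in place of by its UMIs, the ratio of control tumor over blood in all monocyte-to-macrophage cells was −0.55, and that between the tumors was 0.66. Control tumor macrophages, low in Ly6c2, had a median of 8988 UMIs against 4912 UMIs in its classical monocytes.

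Ly6a, the gene of Sca-1, was the member with the largest ratio of tumor over blood. It stood at 845 CPM (831 to 860) in the Treg-depleted tumor, 1014 CPM (1003 to 1025) in the control tumor and 25.0 CPM (22.6 to 27.5) in blood. The log2 ratios over blood were 5.08 (4.94 to 5.22) for the Treg-depleted tumor and 5.34 (5.21 to 5.49) for the control tumor, or 33.9-fold and 40.6-fold. Both tumors stood far above blood in every gate that could be compared. Within classical monocytes Ly6a stood at 769 CPM in the Treg-depleted tumor, 682 CPM in the control tumor and 21.02 CPM in blood. Within nonclassical monocytes, where only the control tumor had enough cells, it stood at 357 CPM against 36.1 CPM in blood. With cells thinned to 1000 UMIs each, 43.8% (42.2 to 45.4) of the Treg-depleted tumor cells, 44.1% (42.4 to 45.7) of the control tumor cells and 2.18% (1.78 to 2.65) of the blood cells had a Ly6a UMI. Unthinned, the shares were 70.9%, 73.2% and 5.88%.

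Free RNA bears on the low blood value. Barcodes with 1 to 50 UMIs, which hold no cell, had 1225 CPM of Ly6a in the Treg-depleted tumor, 1268 CPM in the control tumor and 106 CPM in blood, above the level in the cells of each library. Blood monocyte-to-macrophage cells had a Ly6a UMI in 2.18% of thinned cells at a median of 3615 UMIs, and blood NK or T cells in 2.38% at a median of 1454 UMIs. The share of NK or T cells rests on 4 cells (0.653 to 5.98), and whether those cells lack Ly6a was not tested. By shares of cells alone, Ly6a in blood monocytes was not told apart from the NK or T cell share. Free RNA was estimated at 12.8 CPM of the 25.0 CPM in the blood cells. Blood classical monocytes differed among themselves, with 42.8 CPM and 5.15 CPM in the highest and lowest type I interferon tertiles described below. Median depths there were 3816 and 3775 UMIs, and 5.15 CPM lies below the estimate. With the estimated free UMIs subtracted, the log2 ratios over blood were 5.66 for the Treg-depleted tumor and 6.15 for the control tumor. The estimate for the Treg-depleted tumor exceeded some levels counted there, as given below.

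Ly6i, a less studied relative of Ly6c on the same strand, was higher than in blood in the Treg-depleted tumor and within the classical gate of both tumors. It stood at 274 CPM (266 to 282) in the Treg-depleted tumor, 140.0 CPM (136 to 144) in the control tumor and 128 CPM (122 to 133) in blood. The log2 ratios were 1.10 (1.02 to 1.18) for Treg-depleted tumor over blood, 0.13 (0.06 to 0.21) for control tumor over blood and 0.97 (0.91 to 1.03) between the tumors. In blood the gene was carried more by nonclassical monocytes, at 289 CPM against 83.9 CPM in classical monocytes, a log2 ratio of 1.78 (1.66 to 1.91), and those cells were scarce in both tumors. Within the classical gate Ly6i stood at 377 CPM in the Treg-depleted tumor, 209 CPM in the control tumor and 83.9 CPM in blood, with log2 ratios over blood of 2.17 (2.07 to 2.27) and 1.32 (1.202 to 1.43). Barcodes with 1 to 50 UMIs had 422 CPM in the Treg-depleted tumor, 193 CPM in the control tumor and 187 CPM in blood, and with the free UMIs subtracted the ratio of Treg-depleted tumor over blood was 0.86. The estimate behind that subtraction exceeded some levels counted in the Treg-depleted tumor, as given below.

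Ly6e, the most widely expressed member, whose protein shapes viral entry into cells and serves in mice as a receptor for syncytin-A, was lower in both tumors. It stood at 689 CPM (676 to 702) in the Treg-depleted tumor, 890.4 CPM (880.0 to 900.8) in the control tumor and 1728 CPM (1709 to 1748) in blood. The log2 ratios over blood were −1.33 (−1.36 to −1.29) and −0.96 (−0.98 to −0.93). Within classical monocytes the levels were 893 CPM in the Treg-depleted tumor, 1169 CPM in the control tumor and 1680 CPM in blood. After thinning, 43.3% of Treg-depleted tumor cells, 58.9% of control tumor cells and 79.8% of blood cells had a Ly6e UMI.

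Ly6c1, which in other tissues marks endothelial cells and lymphocytes, was scarce. It had 13.5 CPM (11.8 to 15.5) in the Treg-depleted tumor, 4.18 CPM (3.50 to 4.95) in the control tumor and 7.16 CPM (5.94 to 8.55) in blood. The log2 ratio between the tumors was 1.70, from 1.38 to 2.02, in the same direction as Ly6c2, with which it shares sequence. Summed over 8 stromal or endothelial markers, classical monocytes had 112 CPM in the Treg-depleted tumor, 25.6 CPM in the control tumor and 20.1 CPM in blood, with 4 or 5 of the 8 at 0. The part of such cells in the Ly6c1 counts was not tested. Ly6g and Ly6d were near absent from the lineage. Ly6g, the neutrophil antigen gene, had 4 UMIs in the Treg-depleted tumor, 2 UMIs in the control tumor and 26 UMIs in blood. Ly6d, a gene of early B cells and plasmacytoid DCs, had 5 UMIs, 101 UMIs and 194 UMIs in that order. Free RNA in blood was estimated at 1.86 CPM of Ly6g and 9.96 CPM of Ly6d. Blood classical monocytes had 1.14 and 6.60 CPM of these genes, and nonclassical ones 3.52 and 25.6 CPM. In the control tumor free RNA was estimated at 6.59 CPM of Ly6d, against 6.43 CPM in classical monocytes and 2.29 CPM in macrophages.

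Read against all genes, 2 of the 7 members, Ly6a and Ly6i, were at least 2-fold higher in the Treg-depleted tumor than in blood, and 3, Ly6e, Ly6g and Ly6d, at least 2-fold lower. Over the 10817 genes counted in that comparison 16.1% were as much higher and 28.4% as much lower. For control tumor over blood, Ly6a alone was at least 2-fold higher, with 15.8% of 11246 genes higher, and Ly6c2, Ly6g and Ly6d were 2-fold lower, with 22.5% of genes lower. Ly6g rested there on 2 control tumor UMIs, with a log2 ratio of −4.61 (−7.73 to −2.62). In every comparison counted here, the part of free RNA in the Ly6g and Ly6d counts was not tested. Between the tumors, 6 members had enough UMIs. Ly6c2 and Ly6c1 were at least 2-fold higher in the Treg-depleted tumor, against 7.73% of 11015 genes, and Ly6d was 2-fold lower, against 9.10%. Within the classical gate, Ly6a and Ly6i were 2-fold higher in both tumors than in blood, and Ly6c1 in the Treg-depleted tumor as well, where 14.0% of genes in the Treg-depleted tumor and 11.2% in the control tumor were as much higher. Of the 6 members counted there, Ly6d alone was 2-fold lower in the Treg-depleted tumor than in blood and none was in the control tumor, with 30.5% and 28.7% of genes as much lower. Between the tumors, Ly6c1 was 2-fold higher in the Treg-depleted tumor (9.30% of genes) and Ly6d 2-fold lower (4.98% of genes) in that gate. Ly6d had 1 UMI in those Treg-depleted tumor cells, with log2 ratios of −5.46 (−10.78 to −2.95) over blood and −5.42 (−10.76 to −2.87) over the control tumor. The median log2 ratio of genes with at least 20 UMIs in both libraries was −0.31 for Treg-depleted tumor over blood and −0.35 for control tumor over blood. Relative to it, Ly6c2 stood at 0.44 and −0.74 and Ly6i at 1.41 and 0.48.

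**Figure D1:**
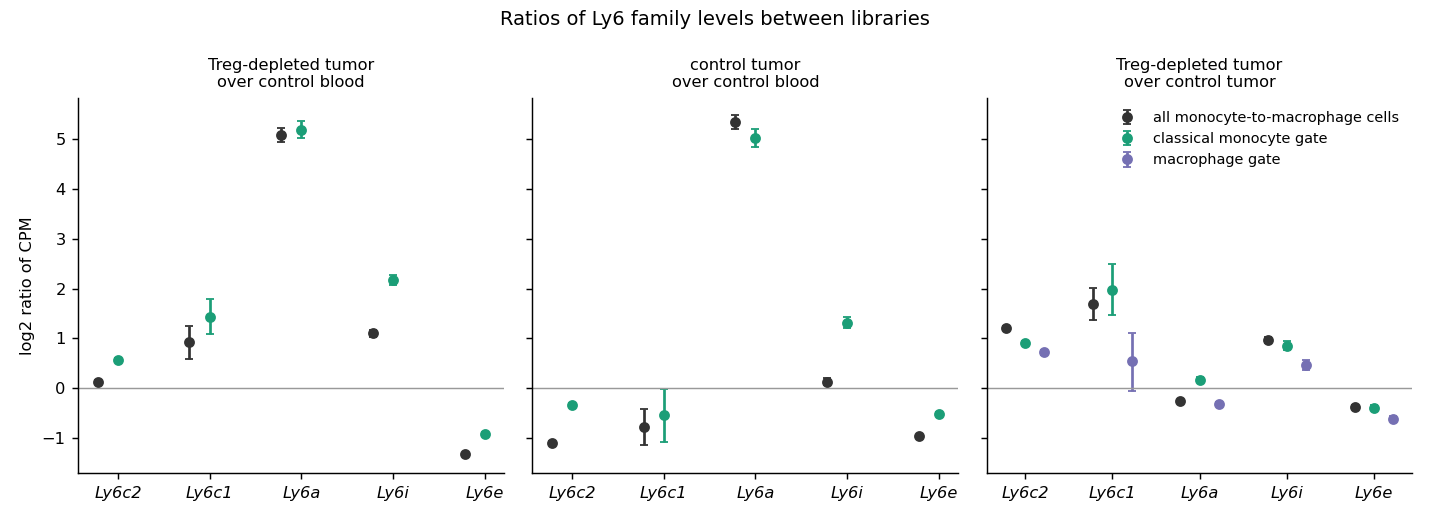
Log2 ratios of CPM between libraries for 5 Ly6 genes (vertical axis, log2), in all monocyte-to-macrophage cells, in the classical monocyte gate and, between the tumors, in the macrophage gate; bars are 95% intervals for counting error. Ly6a lies at 5.02 to 5.34 over blood in both tumors, while Ly6c2 lies at 0.13 over blood in the Treg-depleted tumor and at −1.09 in the control tumor.

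The ratio of one member to another in the same cells does not depend on scaling to the library total. Per UMI of Ly6c2 there were 0.680 UMIs of Ly6a in the Treg-depleted tumor, 1.90 UMIs in the control tumor and 0.0220 UMIs in blood. Relative to Ly6c2, Ly6a was thus 31.0-fold (28.1 to 34.2) higher in the Treg-depleted tumor and 86.5-fold (78.4 to 95.4) higher in the control tumor than in blood. Ly6i per Ly6c2 was 0.220 in the Treg-depleted tumor, 0.262 in the control tumor and 0.112 in blood. The corresponding gains were 1.96-fold (1.86 to 2.07) and 2.34-fold (2.21 to 2.47). Within classical monocytes the gain of Ly6i on Ly6c2 was 3.04-fold (2.83 to 3.28) in the Treg-depleted tumor and 3.15-fold (2.90 to 3.42) in the control tumor. Between the tumors, in that gate, Ly6i per Ly6c2 had a ratio of 0.966 (0.9004 to 1.04), an interval that holds 1, whereas Ly6a per Ly6c2 had 0.603 (0.575 to 0.633). Taken over the whole gate, Ly6c2 and Ly6i were thus higher in the Treg-depleted tumor by similar factors in classical monocytes, while the quintiles below differed in this. Ly6a was higher by less, at 769 CPM against 682 CPM in the control tumor.

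Along the step from monocyte to macrophage in the tumors, Ly6c2 and Ly6i were lower in macrophages, Ly6i with an early peak, and Ly6a was not. In the Treg-depleted tumor Ly6c2 stood at 587 CPM in the macrophage gate and 2053 CPM in the classical gate, and in the control tumor at 356 CPM and 1098 CPM. The log2 ratios of macrophages over classical monocytes were −1.81 (−1.86 to −1.76) and −1.62 (−1.67 to −1.58). Those of Ly6i were −1.30 (−1.405 to −1.202) in the Treg-depleted tumor and −0.91 (−1.002 to −0.81) in the control tumor. Those of Ly6a were positive, at 0.23 (0.18 to 0.28) and 0.71 (0.67 to 0.76). Ly6a stood at 902 CPM in macrophages of the Treg-depleted tumor and 1119 CPM in those of the control tumor. Over all monocyte-to-macrophage cells, free RNA was estimated at 328 CPM of Ly6c2 in the Treg-depleted tumor and 62.3 CPM in the control tumor. For Ly6i the estimates were 117 and 22.2 CPM, and for Ly6a 339 and 146 CPM. The part of free RNA in the macrophage levels, and in the quintiles below, was not tested.

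Ranking the monocyte-to-macrophage cells of each tumor by the macrophage score minus the classical monocyte score, and cutting the ranking into quintiles, gave finer steps. From the most monocyte-like to the most macrophage-like quintile, Ly6c2 stood at 2760, 1229, 937, 623 and 491 CPM in the Treg-depleted tumor. In the control tumor the values were 1136, 976, 665, 383 and 156 CPM. Ly6c2 was lower at each step in both libraries. The quintiles are ranks within a library, with median score differences of −0.51, −0.17, 0.03, 0.21 and 0.43 in the Treg-depleted tumor and −0.54, −0.16, 0.22, 0.55 and 0.90 in the control tumor, so only some of them match. Quintiles 1 and 2 lay at like scores, and there Ly6c2 was higher in the Treg-depleted tumor. Quintile 4 of the Treg-depleted tumor lay at about the score of quintile 3 of the control tumor, and there the order turned, with 623 CPM (596 to 652) in the Treg-depleted tumor and 665 CPM (645 to 686) in the control tumor. Like scores do not mean like cells, since different markers gave the score in each tumor. In quintile 2 Arg1 stood at 4776 CPM in the Treg-depleted tumor and 89.3 CPM in the control tumor, and Apoe at 133 and 2001 CPM. Ly6i was highest in quintile 2, at 457 CPM in the Treg-depleted tumor and 267 CPM in the control tumor, and lowest in the last, at 91.7 CPM and 53.8 CPM. In quintile 1 it stood at 359 CPM and 171 CPM. Between the tumors, Ly6i thus differed by a smaller factor than Ly6c2 in quintile 1 and by a larger one in quintile 2. Ly6a in the control tumor was 416 CPM in quintile 1, 1359 CPM in quintile 3 and 938 CPM in quintile 5. In the Treg-depleted tumor it was 655 CPM in quintile 1 and 873 to 937 CPM in the other 4. Ly6e was highest in quintile 1 of both tumors, at 1111 CPM and 1260 CPM. Depth moved with the score in the control tumor, with medians of 4717 UMIs in quintile 1 and 11380 UMIs in quintile 5, but not in the Treg-depleted tumor (4601 and 3780 UMIs). CPM is scaled to the cells' total, and the part of depth was not tested.

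**Figure D2:**
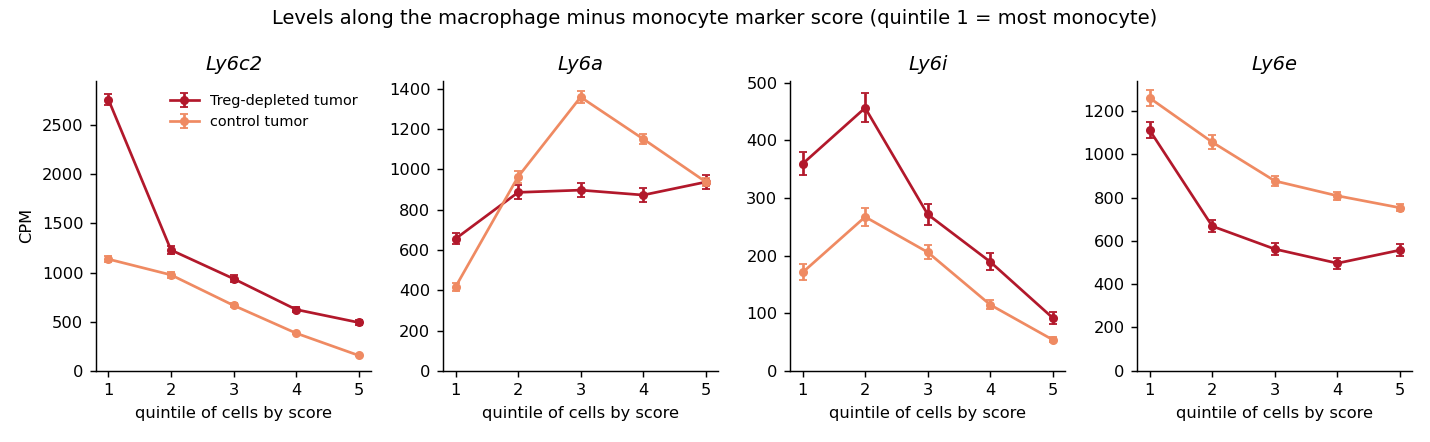
CPM (vertical axis, from 0) of Ly6c2, Ly6a, Ly6i and Ly6e in quintiles of the monocyte-to-macrophage cells of each tumor, ranked by macrophage minus classical monocyte marker score (horizontal axis); bars are 95% intervals for counting error. Ly6c2 is lower in each successive quintile, Ly6i peaks in quintile 2, and Ly6a is highest in quintile 3 of the control tumor at 1359 CPM.

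Outside this lineage the members marked different cell types. Plasmacytoid DCs, of which only the control tumor held enough, had 4454 CPM of Ly6d, 2225 CPM of Ly6a, 2007 CPM of Ly6c2 and 1886 CPM of Ly6e, each above the same library's classical monocytes. Blood B cells had 3371 CPM of Ly6d and 724 CPM of Ly6a, the one blood gate with abundant Ly6a, and 29.1% of them had a Ly6a UMI after thinning. Among conventional DCs, cDC2 had 1133 CPM of Ly6a in the Treg-depleted tumor, 1413 CPM in the control tumor and 43.1 CPM in blood. The cDC1, cross-presenting DCs that should lack Ly-6C, had 233 CPM of Ly6c2 in the Treg-depleted tumor and 152 CPM in the control tumor, and 24.6% and 15.04% of them had a Ly6c2 UMI after thinning, at median depths of 6115 and 10949 UMIs. Free RNA was estimated at 160 CPM of Ly6c2 in those cDC1 of the Treg-depleted tumor and 46.2 CPM in those of the control tumor, and the source of the rest was not tested. The cDC1 shares stand beside 46.9% and 36.3% in the monocyte-to-macrophage cells of the same tumors, at medians of 3908 and 6313 UMIs. In blood, B cells had a Ly6c2 UMI in 6.33% of thinned cells at a median of 2232 UMIs, against 47.6% in monocyte-to-macrophage cells. NK or T cells that passed the sort in blood had 846 CPM of Ly6c2, which T and NK cells are known to express. Free RNA was estimated at 311 CPM of Ly6c2 in those cells.

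The neutrophil gate passed the Ly6G sort with 56 cells in the Treg-depleted tumor and 140 in blood. Ly6i stood there at 689 CPM in the Treg-depleted tumor and 68.7 CPM in blood. Ly6a stood at 609 CPM (76 UMIs) in the Treg-depleted tumor and 3.27 CPM (1 UMI) in blood. Ly6g stood at 56.1 CPM (7 UMIs) in the Treg-depleted tumor and 684 CPM (209 UMIs) in blood. Since cells with surface Ly-6G had been sorted out, these are neutrophils selected for low Ly-6G and do not describe neutrophils at large. The 8 neutrophil markers summed to 4512 CPM in the gate of the Treg-depleted tumor and 75950 CPM in that of blood, so the cells may be unlike. Barcodes with 1 to 50 UMIs of the Treg-depleted tumor had 1225 CPM of Ly6a and 422 CPM of Ly6i. The part of free RNA in this gate was not tested. Outside this gate Ly6g was at or below 3.52 CPM in the gates of at least 50 cells. Of the 18 Ly6g UMIs in kept cells of the Treg-depleted tumor, 4 were in monocyte-to-macrophage cells and 7 in the neutrophil gate, and the rest were in cells of no gate or of gates under 50 cells.

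**Figure D3:**
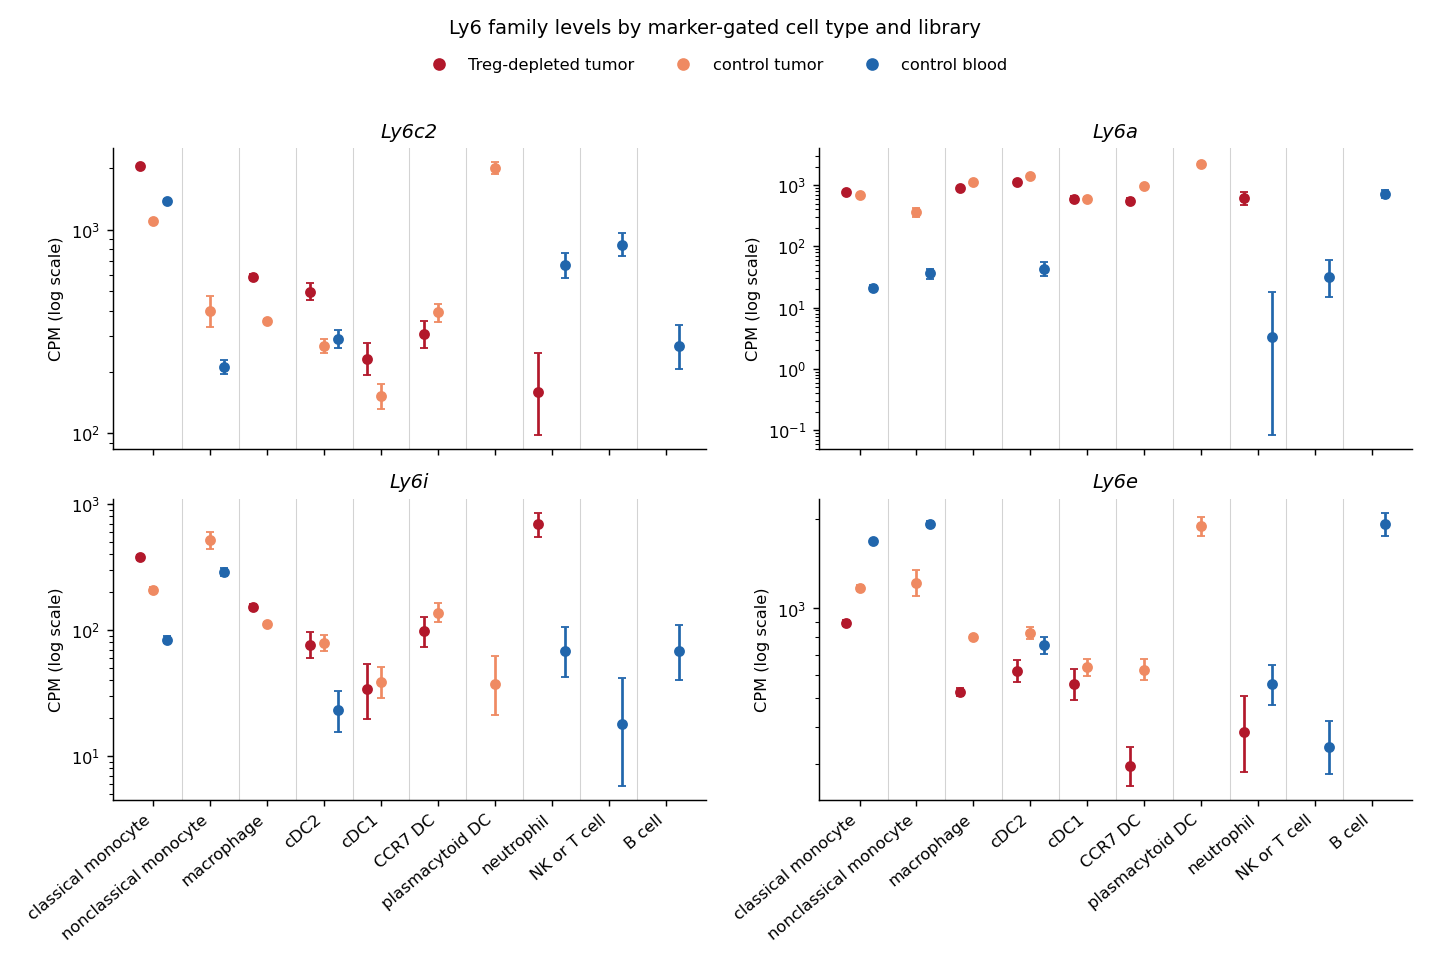
CPM (vertical axis, log scale) of Ly6c2, Ly6a, Ly6i and Ly6e in each marker gate with at least 50 cells and 1 UMI of the gene, by library; bars are 95% Poisson intervals. Ly6a separates the tumors from blood in all shared gates, whereas Ly6c2 follows the gate, from 2053 CPM in classical monocytes of the Treg-depleted tumor to 587 CPM in its macrophages.

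Interferon-induced genes were compared with the members within the classical monocyte gate, by ranking the cells of a library on a list and setting the highest tertile against the lowest. The lists held no Ly6 gene, and cells of 1 library are not replicates. In blood, Ly6a stood at 42.8 CPM in the tertile with the highest type I interferon list and 5.15 CPM in the lowest, a log2 ratio of 3.06 (2.42 to 3.77). In the Treg-depleted tumor Ly6a stood at 729.5 CPM and 815 CPM, a ratio of −0.16 (−0.26 to −0.06), and in the control tumor at 839 CPM and 573 CPM, a ratio of 0.55 (0.45 to 0.65). On the interferon gamma list the ratios of Ly6a were 0.14 (0.035 to 0.24) in the Treg-depleted tumor, 0.295 (0.19 to 0.40) in the control tumor and 2.49 (1.94 to 3.09) in blood. Ly6a was thus higher in the highest tertile of both lists in blood and, by less, in the control tumor, while in the Treg-depleted tumor its ratios were small and of opposite sign on the 2 lists. Differences between libraries in these ratios were not tested.

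Within this gate Ly6c2 followed the type I list most steeply in the Treg-depleted tumor. There it stood at 2799 CPM in the highest tertile and 1363 CPM in the lowest, a log2 ratio of 1.04 (0.97 to 1.10). The control tumor had a ratio of 0.83 (0.75 to 0.91), and blood had 0.57 (0.51 to 0.62). On the interferon gamma list Ly6c2 had ratios of 0.86 in the Treg-depleted tumor, −0.09 in the control tumor and 0.33 in blood. Ly6i was higher in the highest tertile of both lists in all 3 libraries, by 0.395 to 0.95. Median depths of the highest and lowest tertiles differed by at most 1.16-fold in this gate. The type I list took 1.64% and 0.224% of UMIs in these tertiles of the Treg-depleted tumor. The shares were 1.35% and 0.269% in the control tumor and 0.831% and 0.127% in blood. Over all monocyte-to-macrophage cells the order of the tumors for Ly6c2 on this list was reversed. The ratios there were 1.465 (1.41 to 1.52) in the Treg-depleted tumor, 2.06 (1.998 to 2.12) in the control tumor and 0.873 in blood.

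**Figure D4:**
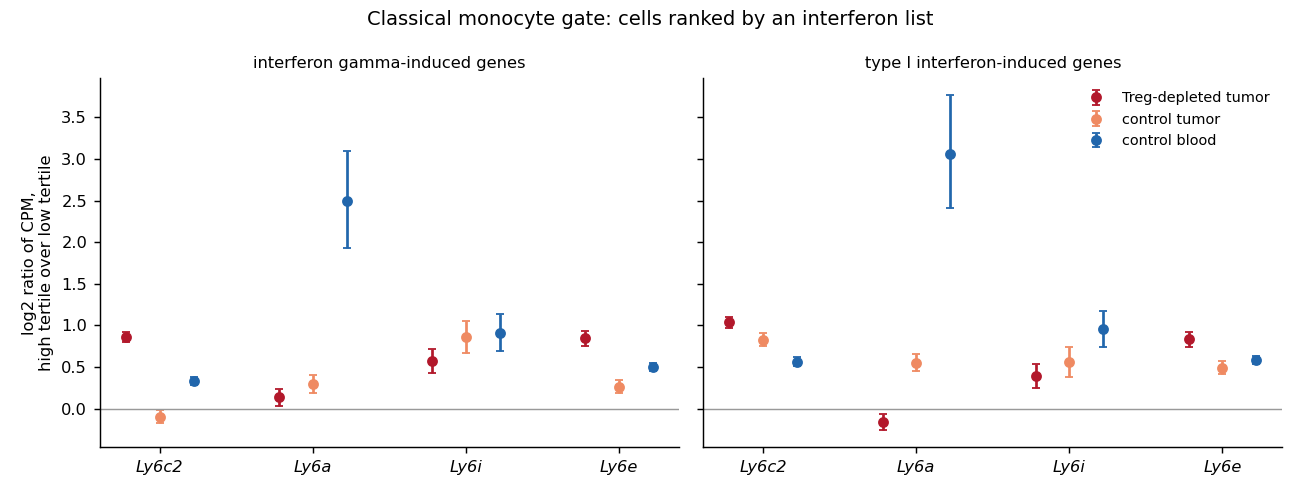
Log2 ratio of CPM (vertical axis) between the tertiles of classical monocytes with the highest and the lowest share of UMIs in a list of interferon gamma-induced genes (left) or type I interferon-induced genes (right), by gene and library; bars are 95% intervals for counting error. Ly6a lies at 3.06 in blood and at −0.16 in the Treg-depleted tumor on the type I list.

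The lists themselves were compared over the monocyte-to-macrophage cells. Of 29 interferon gamma-induced genes counted, 21 were at least 2-fold higher and 1 lower in the Treg-depleted tumor than in blood, and 18 were higher and 0 lower in the control tumor. Their median log2 ratios were 1.74 and 1.19, against −0.34 and −0.28 over all genes counted. The guanylate-binding protein gene Gbp2 stood at 733 CPM in the Treg-depleted tumor, 486 CPM in the control tumor and 45.8 CPM in blood. The chemokine genes Cxcl10 and Cxcl9 stood at 381.5 and 170.0 CPM in the Treg-depleted tumor, 530.1 and 498 CPM in the control tumor and 36.8 and 4.20 CPM in blood. The immunoproteasome gene Psmb8 stood at 758 CPM, 1019 CPM and 836 CPM in the same order of libraries. Of 35 type I interferon-induced genes, 6 were at least 2-fold higher and 3 lower in the Treg-depleted tumor than in blood, and 5 and 4 in the control tumor, with a median of −0.19 in both. The higher ones were near the share over all genes, 16.1% in the Treg-depleted tumor and 15.8% in the control tumor. The lower ones were below the share over all genes, 28.4% in the Treg-depleted tumor and 22.5% in the control tumor. Isg15, a ubiquitin-like modifier, stood at 1502 CPM in the Treg-depleted tumor, 1133 CPM in the control tumor and 285 CPM in blood. The DNA sensor gene Ifi204 stood at 530 CPM, 383 CPM and 372 CPM, its neighbour Ifi205 at 503 CPM, 310.0 CPM and 62.9 CPM, and the tetherin gene Bst2 at 411 CPM, 484 CPM and 327 CPM in that order.

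Genes that monocytes carry in the circulation were mostly lower in the tumors. Of 19 such surface and adhesion genes, 13 were at least 2-fold lower and 2 higher in each tumor than in blood, where 28.4% of all genes in the Treg-depleted tumor and 22.5% in the control tumor were as much lower. Their median log2 ratios were −2.44 and −1.59, against −0.34 and −0.28 over all genes. Ccr2, the chemokine receptor that brings monocytes into tissue, stood at 147 CPM in the Treg-depleted tumor, 160 CPM in the control tumor and 1303 CPM in blood. Klf2, a transcription factor gene of circulating leukocytes, stood at 112 CPM, 89.1 CPM and 1028 CPM in that order, Cd48, an adhesion ligand gene, at 72.0 CPM, 164 CPM and 471 CPM, and Csf1r, the receptor gene for the macrophage growth factor, at 183 CPM, 242 CPM and 462 CPM. The ratio of Ly6c2 over blood was thus smaller in size than that of Ccr2 in both tumors, where Ccr2 had −3.15 and −3.02 on the log2 scale. Ccr2 is among the markers of the classical gate.

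Other genes of the wider Ly6 and urokinase receptor family were mostly at a few UMIs. Of 31 found, 3 to 5 had the 20 UMIs needed, depending on the comparison. Plaur, the urokinase receptor gene, was the abundant one, at 748 CPM in the Treg-depleted tumor, 769 CPM in the control tumor and 175 CPM in blood, with log2 ratios over blood of 2.10 and 2.14. Bambi, a pseudoreceptor for transforming growth factor beta listed here for its related fold, stood at 11.1 CPM, 10.1 CPM and 6.03 CPM. Lynx1, a modulator of acetylcholine receptors, had 10 UMIs in the Treg-depleted tumor, 37 UMIs in the control tumor and 41 UMIs in blood, and the complement regulator gene Cd59a had 5, 48 and 2 UMIs. Among 18 genes of GPI anchor attachment and GPI-anchored myeloid proteins, 6 were at least 2-fold higher and 4 lower in the Treg-depleted tumor than in blood, and 7 and 3 in the control tumor. Over all genes 16.1% were as much higher and 28.4% lower in the Treg-depleted tumor, and 15.8% and 22.5% in the control tumor. The list's median log2 ratios were 0.13 and 0.38, against −0.34 and −0.28. The lipopolysaccharide co-receptor gene Cd14 stood at 1248 CPM in the Treg-depleted tumor, 3209 CPM in the control tumor and 29.4 CPM in blood, and the leukocyte antigen gene Cd52 at 2221 CPM, 2189 CPM and 3115 CPM.

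Across the 19 library-by-gate groups of at least 50 cells, the members had different patterns. Pearson's r of log2(CPM + 5) was 0.83 between Ly6c2 and Ly6c1, −0.07 between Ly6c2 and Ly6a, −0.03 between Ly6c2 and Ly6i and 0.20 between Ly6a and Ly6i. The groups share 3 libraries, so these are descriptions. Among 5147 genes, those most like Ly6a were Ppa1, which encodes a pyrophosphatase (r = 0.93), Slc3a2, the CD98 heavy chain gene, Hsp90aa1, Sar1a and Rilpl2. Those most like Ly6i were Cdc42ep2 (r = 0.93), the transcription factor gene Cebpb (r = 0.92), the tumor necrosis factor receptor gene Tnfrsf1b, the Fc receptor gene Fcgr4 and Rnf149. Among those most like Ly6e were Plac8 (r = 0.88), the kinase gene Lyn, Unc93b1 and Cmtm7. Plac8 is among the markers of the classical gate, so its pattern over these groups is partly set by the gating. Ly6c2 had weaker matches, Gas7 (r = 0.76), Tmed7, Hivep3, Chic2 and Vapa. By Spearman's rank correlation 0 of the 5 genes named for Ly6a were among its leading 5.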

How the data were processed

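The deposited files hold raw UMI counts, whole numbers for each gene and barcode, made with Cell Ranger 1.2 against mm10, per the submitters' processing notes. Libraries were 3′ v2 droplet libraries, and tumors were digested with enzymes while blood was not, per the labels' protocols, so tissue and digestion cannot be told apart. A barcode was kept with 1000 UMIs or more, 400 genes or more and no more than 10% of UMIs from mitochondrial genes. Kept cells had 83.3% of 23291061 UMIs in the Treg-depleted tumor, 91.0% of 42493416 in the control tumor and 86.4% of 22944387 in blood. No doublets were removed in the values of the report.

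Cells were scored on 13 marker lists (100 of 102 genes found) and given the best-scoring type where it led by 0.05 with a score of at least 0.15 and 2 markers detected. Within 2 times that margin lay 859 of the Treg-depleted tumor, 394 of the control tumor and 329 of the blood lineage cells. Counts were summed per library and gate. CPM carry exact Poisson intervals, log2 ratios exact conditional intervals, shares Clopper-Pearson intervals after thinning to 1000 UMIs, all at 95%. Ratios between members carry log-normal intervals in place of the exact ones planned, since the counts were large. A gene needed 20 UMIs in either library and at least 2-fold to be counted as higher or lower. A count of 0 was set to a floor of 3 UMIs over the gate.

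The members, gene lists and tests were chosen with earlier results of these data known. All 7 members are named, with the 4 most abundant genes of each list and the 5 genes most like a member by Pearson's r among genes of at least 50 CPM in a group, except 1 gene that is not reported here. The calculations used Python 3.11.15, numpy 2.4.6, scipy 1.17.1, pandas 2.3.3, scanpy 1.11.5 and biopython for alignments, and the ratio step was tested on simulated data. Gene positions are from GENCODE M21, which held 27645 of the 27998 identifiers. Alternatives tried were other filters, doublet removal, clusters in place of gates, a wider margin, another scaling, subtraction of free RNA and means over cells.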

Additional observations from a re-analysis of the deposited data

Results flagged for a closer look

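Ly6a differed between the tumors in opposite directions in the 2 main gates. In classical monocytes it stood at 769 CPM in the Treg-depleted tumor and 682 CPM in the control tumor, a log2 ratio of 0.17 (0.12 to 0.23). In macrophages it stood at 902 CPM and 1119 CPM, a log2 ratio of −0.31 (−0.35 to −0.27). Both differences are small, 1.13-fold in the classical gate, and exceed counting error, but the difference between the gates was not tested and there is 1 library per tumor. Free RNA held 1225 CPM of Ly6a in the Treg-depleted tumor and 1268 CPM in the control tumor, and its part in the result was not tested.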

How the results depend on the processing

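No paired analysis was possible because each group has 1 library. For Ly6c2, Ly6a and Ly6i in the 3 comparisons, 9 alternatives each gave 81 log2 ratios, of which 50 lay within the counting interval of the reported value and 31 outside it, and every one but that of Ly6a between the tumors in classical monocytes alone kept its sign. In classical monocytes alone, Ly6c2, Ly6a and Ly6i had 0.90, 0.17 and 0.85 between the tumors. Over blood, Ly6c2 and Ly6i there had 0.565 and 2.17 in the Treg-depleted tumor, and Ly6c2, Ly6a and Ly6i had −0.34, 5.02 and 1.32 in the control tumor. Scaling by the median gene ratio gave 0.44, 5.40 and 1.41 for the Treg-depleted tumor and −0.745, 5.69 and 0.48 for the control tumor over blood. Subtracting free RNA gave 0.16, 5.66 and 0.86 for the Treg-depleted tumor over blood, 6.15 for Ly6a in the control tumor over blood, and −0.49 for Ly6a and 0.705 for Ly6i between the tumors. The free RNA estimate of the Treg-depleted tumor exceeded some levels counted there. Means over cells gave 0.97 for Ly6i in the Treg-depleted tumor over blood, −0.55 for Ly6c2 in the control tumor over blood, and 0.66 for Ly6c2 and 0.80 for Ly6i between the tumors. With clusters, Ly6c2 and Ly6i had 0.20 and 1.29 in the Treg-depleted tumor and −1.003 and 0.27 in the control tumor over blood. Ly6c2 had 0.18 in the Treg-depleted tumor over blood with at most 5% mitochondrial UMIs, −1.13 in the control tumor over blood without doublets, and 1.27 between the tumors with a UMI minimum per library. Among values named once, 62 of 198 lay outside their range. Among them, a change of direction was counted only where the reported ratio was at least 2-fold. The one such change was Ly6g in the Treg-depleted tumor over blood, 0.47 with clusters, and Ly6g has few UMIs. The causes were not tested.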

Other observations

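Members were also compared by detection in the same cells, after thinning to 1000 UMIs. In macrophages of the control tumor, Ly6c2 was found in 33.8% (31.1 to 36.5) of cells with a Ly6a UMI and 18.6% (16.2 to 21.2) of cells without one. In macrophages of the Treg-depleted tumor the shares were 38.4% (35.0 to 41.8) and 29.5% (26.7 to 32.5). Among classical monocytes of the Treg-depleted tumor the shares were 63.4% (59.4 to 67.2) and 64.9% (61.7 to 68.0), whose intervals overlap. Among classical monocytes of the control tumor they were 59.05% (53.6 to 64.35) and 49.8% (46.6 to 53.1), which do not overlap. Differences between gates were not tested. In blood nonclassical monocytes, Ly6c2 was found in 13.7% (9.80 to 18.3) of cells with a Ly6i UMI and 13.6% (11.4 to 16.1) of cells without one.

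Classical monocytes of the Treg-depleted tumor had 0.0117 UMIs of Ly6c1 per UMI of Ly6c2, those of the control tumor 0.00559 and those of blood 0.00640. The ratio between the tumors was 2.09-fold (1.49 to 2.94). In macrophages it was 0.882 (0.599 to 1.30).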
